A study of Homo sapiens with 12 samples.

Results

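The transcripts described here are 8 human long non-coding RNAs: MALAT1 and NEAT1, which stay in the nucleus, and the small nucleolar RNA (snoRNA) host transcripts GAS5, SNHG1, SNHG5, SNHG8, SNHG12 and SNHG15. They were read from probe sets whose platform annotation names exactly 1 gene symbol, and they had been chosen by their measured SAHM1 against DMSO differences in each line, so those differences describe them below and test nothing. Under that rule 2 of the 8 were measured, by 13 of the 54675 probe sets of the array: MALAT1 by 12 and GAS5 by 1. NEAT1, SNHG1, SNHG5, SNHG8, SNHG12 and SNHG15 had no probe set of their own, and 20 further probe sets listed a member together with other genes. These are given by their identifiers only, since their signal cannot be credited to one of the genes listed.

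The arrays came from KOPT-K1 and HPB-ALL, 2 established human T-cell acute lymphoblastic leukaemia lines. The groups were KOPT-K1 with 20 µM SAHM1, KOPT-K1 with an equivalent amount of DMSO, HPB-ALL with 20 µM SAHM1 and HPB-ALL with an equivalent amount of DMSO. SAHM1 is a hydrocarbon-stapled peptide modelled on mastermind-like 1, a co-activator of the NOTCH transcription complex, and DMSO is its vehicle. Exposure lasted 24 hours and each group held 3 arrays, 12 in all, from total RNA of whole cultures. In such bulk RNA, fewer cells of a type and less RNA per cell cannot be told apart. The deposited values are ratios to the average DMSO array of each line, so levels of different transcripts, and of the same transcript in the 2 lines, cannot be compared, and the lines' identity cannot be checked from the level of a marker. Of the 8 T cell markers, 0 were called in KOPT-K1 at an adjusted p under 0.05 (limma, 2 at an unadjusted p under 0.05). CD3G stood at -0.50 ± 0.18 there without overlap. In HPB-ALL CD3G was called higher and 3 markers lower. These counts turned on single arrays and on the fit: the CD3G call was lost without any 1 HPB-ALL array other than DMSO replicate 1, the 3 lower calls were lost without HPB-ALL SAHM1 replicate 2 or HPB-ALL DMSO replicate 2 or 3, and 2 markers were lower in KOPT-K1 without HPB-ALL DMSO replicate 1. The 3 lower were 1 without HPB-ALL SAHM1 replicate 1, HPB-ALL DMSO replicate 1 or any 1 KOPT-K1 DMSO array, and 1 was lower in KOPT-K1 without KOPT-K1 SAHM1 replicate 1. With the 18S level of each array as a covariate 2 markers were called in KOPT-K1 and 0 in HPB-ALL, and after quantile normalization 0 in either line (limma, 0 in KOPT-K1 and 4 in HPB-ALL at an unadjusted p under 0.05). Of 3 B cell, 4 myeloid and 3 erythroid markers measured, only the B cell marker MS4A1 was called, higher in KOPT-K1 (0.32 ± 0.07). That call was kept in all 12 fits without 1 array and lost after quantile normalization.

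MALAT1 is an abundant, mostly unspliced nuclear RNA that gathers at nuclear speckles, bodies rich in splicing factors, and its end is made by RNase P cleavage and capped by a triple helix in place of a poly(A) tail added in the usual way. NEAT1 is the architectural RNA of paraspeckles, bodies built on it by RNA-binding proteins such as NONO and SFPQ. The host transcripts carry snoRNAs in their introns. The snoRNAs are released from the introns and guide chemical modification of ribosomal RNA, whereas the spliced exons of several hosts, GAS5 among them, are degraded by nonsense-mediated decay.

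The RefSeq annotation (GRCh38.p14) gave 2 windows around transcript starts of MALAT1, both on the plus strand of chromosome 11, each with 250 bases before and 50 after the start. They are shown because MALAT1 was the member with the largest differences. Capitals mark a TATAAA match, the only match found when both windows were searched on both strands for TATAAA, for the AP-1 motif TGANTCA, for the E-box CACGTG and for the RBPJ motif GTGGGAA, RBPJ being the DNA-binding protein of the NOTCH complex.
MALAT1 window chr11:65497488-65497787: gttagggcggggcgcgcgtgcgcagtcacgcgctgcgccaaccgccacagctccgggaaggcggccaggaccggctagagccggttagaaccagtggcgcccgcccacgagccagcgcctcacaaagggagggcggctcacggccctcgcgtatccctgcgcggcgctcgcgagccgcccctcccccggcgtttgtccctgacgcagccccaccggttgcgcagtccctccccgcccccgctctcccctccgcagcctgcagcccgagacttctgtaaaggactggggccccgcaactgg
MALAT1 window chr11:65498795-65499094: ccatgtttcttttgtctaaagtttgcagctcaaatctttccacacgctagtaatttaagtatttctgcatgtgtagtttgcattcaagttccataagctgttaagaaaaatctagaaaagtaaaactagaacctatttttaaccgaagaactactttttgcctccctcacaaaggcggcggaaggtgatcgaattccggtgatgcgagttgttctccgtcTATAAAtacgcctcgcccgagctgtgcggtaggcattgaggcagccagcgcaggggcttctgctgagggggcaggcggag
The match in the downstream window began 30 bases before the annotated start. Of 35116 RefSeq start windows of the same length, 11.5% held TATAAA, 7.71% TGANTCA, 7.26% CACGTG and 6.25% GTGGGAA. The letters of the last 3 motifs are not in these windows, which says nothing about the factors.

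The MALAT1 differences were of opposite sign in the lines. As the mean of its 12 probe sets, on the log2 scale of the ratio to the line's DMSO mean, MALAT1 stood at -0.90, -0.61 and -0.56 in the KOPT-K1 SAHM1 arrays, against 0.04, -0.24 and 0.02 in the KOPT-K1 DMSO arrays. All SAHM1 arrays of KOPT-K1 lay below all DMSO arrays, with a difference of -0.63 ± 0.24 (SE from limma, n = 3 arrays per group, as for every difference below), a value 1.55-fold lower. In HPB-ALL the mean was 1.10, 1.16 and 0.91 with SAHM1, against 0.63, -0.53 and -0.48 with DMSO. Here the SAHM1 arrays lay above all DMSO arrays, by 1.18 ± 0.24 or 2.27-fold, and DMSO replicate 1 lay far closer to the SAHM1 arrays than to the other DMSO arrays. In the fit over 19775 genes the MALAT1 mean passed the threshold in HPB-ALL and missed it in KOPT-K1 (limma). Among the fits that left out 1 array, it passed in KOPT-K1 only without HPB-ALL DMSO replicate 1. Other alternative fits in which it passed there are given in the closing section on processing.

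**Figure D1:**
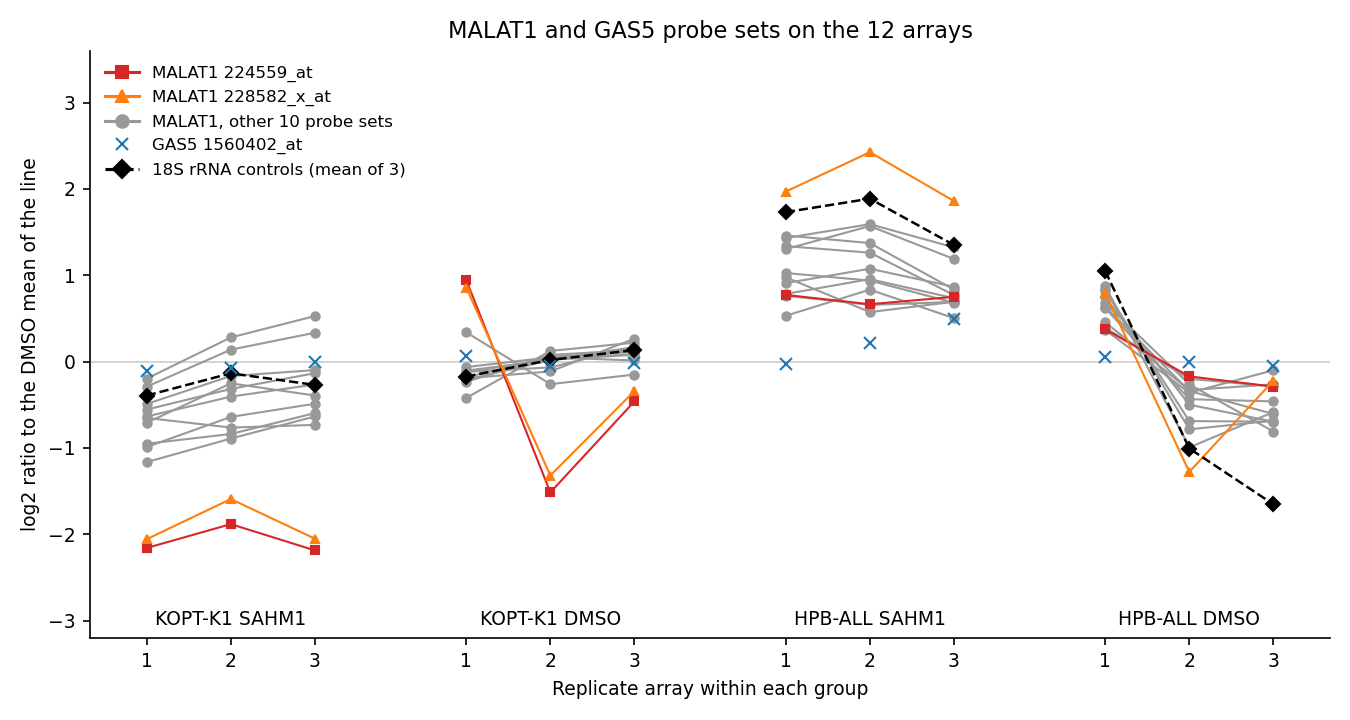
Log2 ratio to the line's DMSO mean (vertical axis) of each MALAT1 probe set, of the GAS5 probe set and of the 18S ribosomal RNA controls on each of the 12 arrays (horizontal axis, replicate within group); lines only join values of the same probe set within a group. The 12 MALAT1 probe sets lie above 0 on all 3 HPB-ALL SAHM1 arrays and on HPB-ALL DMSO replicate 1, and 224559_at and 228582_x_at spread widely over the KOPT-K1 DMSO arrays.

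The 12 MALAT1 probe sets were not alike. Of these, 7 carry the suffix _x_at and 4 the suffix _s_at, which Affymetrix gives to probe sets that may also match other sequences or several transcripts, and 224559_at carries neither. Over the 12 arrays the Pearson correlation between probe sets had a median of 0.89 over 66 pairs and ran from 0.30 (224559_at with 226675_s_at) to 0.998 (223940_x_at with 224568_x_at), a description of probe sets that share each array and a target. The likeness of 224559_at to 226675_s_at was 0.98 over the HPB-ALL arrays and -0.37 over the KOPT-K1 arrays.

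The probe set with neither suffix, 224559_at, read -2.16, -1.88 and -2.19 in KOPT-K1 with SAHM1, against 0.94, -1.52 and -0.46 with DMSO. A nearly parallel pattern was seen in 228582_x_at, at -2.06, -1.59 and -2.05 with SAHM1 and 0.86, -1.32 and -0.34 with DMSO. Both had all SAHM1 arrays below all DMSO arrays, but the DMSO arrays themselves spread over 2.46 for 224559_at and 2.18 for 228582_x_at. These were the widest ranges among the KOPT-K1 DMSO arrays of any of the 54675 probe sets, whose median range was 0.215, and no other probe set reached 2. In KOPT-K1 the difference was -1.73 ± 0.42 for 224559_at and -1.63 ± 0.50 for 228582_x_at. The remaining 10 MALAT1 probe sets had KOPT-K1 differences between -0.89 and 0.22.

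Of these 10, 224558_s_at was the one with the tightest SAHM1 arrays in KOPT-K1, at -0.65, -0.76 and -0.73 with SAHM1 against 0.34, -0.26 and -0.15 with DMSO (-0.69 ± 0.17). In 224568_x_at the KOPT-K1 arrays stood at -1.16, -0.89 and -0.64 with SAHM1 and -0.18, 0.05 and 0.11 with DMSO (-0.89 ± 0.33). At the other end, 226675_s_at read -0.20, 0.28 and 0.53 with SAHM1 and -0.19, -0.11 and 0.27 with DMSO, groups that overlapped (0.22 ± 0.21). A probe set was called where the adjusted p from limma, over all 54675 probe sets, was under 0.05. In KOPT-K1, 3 of the 13 member probe sets were called lower (224558_s_at, 224559_at and 228582_x_at), with 9.79% of all probe sets called lower, and 0 were called higher, with 4.77% of all (5 of the 13 lower and 0 higher at an unadjusted p under 0.05). Without overlap between the groups, 9 of 13 were lower, against 18.5% of all probe sets, and the MALAT1 median difference was -0.56. The count of 3 was 1 without KOPT-K1 SAHM1 replicate 2, 1 without KOPT-K1 DMSO replicate 1 and 7 without HPB-ALL DMSO replicate 1, an array that bears on KOPT-K1 only through the shared estimate of spread. The lower calls over all probe sets, 5353 with all arrays, were 3650, 3394 and 5528 in these fits.

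In HPB-ALL all 12 MALAT1 probe sets were higher with SAHM1, by 0.75 to 2.32 with a median of 0.98. The largest difference was that of 228582_x_at, at 1.97, 2.42 and 1.86 with SAHM1 against 0.79, -1.28 and -0.22 with DMSO (2.32 ± 0.50). For 227510_x_at the arrays read 1.43, 1.59 and 1.32 with SAHM1 and 0.87, -0.99 and -0.58 with DMSO (1.68 ± 0.34). The probe set with neither suffix, 224559_at, was at 0.77, 0.66 and 0.75 with SAHM1 and 0.37, -0.17 and -0.29 with DMSO (0.76 ± 0.42), without overlap and with the KOPT-K1 direction turned round. In 223578_x_at the groups overlapped, at 0.53, 0.83 and 0.50 with SAHM1 and 0.67, -0.26 and -0.81 with DMSO.

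Of the 13 member probe sets, 10 were called higher in HPB-ALL, all of MALAT1, with 3.09% of all probe sets called higher, and 0 were called lower, with 2.06% of all (11 higher and 0 lower at an unadjusted p under 0.05). Without overlap 9 of 13 were higher, against 12.5% of all, and 7 MALAT1 probe sets were lower in KOPT-K1 and higher in HPB-ALL without overlap in either line, against 4.37% of all. The count of 10 depended on each HPB-ALL array but DMSO replicate 1: it was 2, 1 and 4 without SAHM1 replicates 1, 2 and 3, 1 and 2 without DMSO replicates 2 and 3, and 11 without DMSO replicate 1. The higher calls over all probe sets, 1692 with all arrays, were 658, 499 and 666 without SAHM1 replicates 1, 2 and 3. They were 482 and 653 without DMSO replicates 2 and 3, and 2357 without DMSO replicate 1. Without that array the MALAT1 mean difference in HPB-ALL was 1.56.

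**Figure D2:**
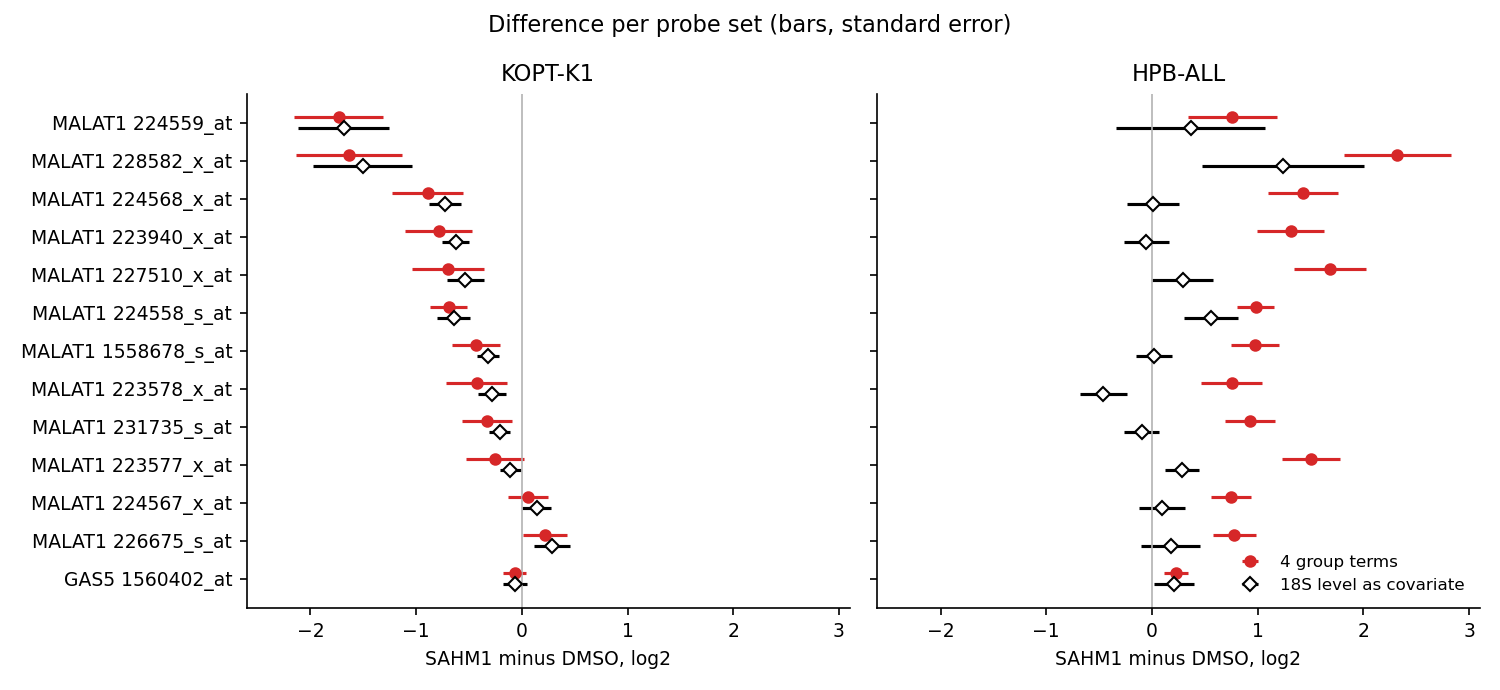
SAHM1 minus DMSO difference on the log2 scale (horizontal axes) of each MALAT1 probe set and of the GAS5 probe set, in KOPT-K1 (left) and HPB-ALL (right), with SE bars; filled circles come from the fit with the 4 groups and open diamonds from the fit with the 18S level of each array added. In HPB-ALL the median of the 12 MALAT1 probe sets is 0.98 in the first fit and 0.14 in the second.

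The array carries 3 control probe sets for 18S ribosomal RNA, the RNA of the small ribosomal subunit, which has no poly(A) tail. Their mean stood at -0.39, -0.14 and -0.27 in KOPT-K1 with SAHM1, against -0.17, 0.02 and 0.13 with DMSO. In HPB-ALL it was 1.73, 1.89 and 1.35 with SAHM1, against 1.05, -1.01 and -1.65 with DMSO. The 18S difference was thus -0.26 in KOPT-K1 and 2.19 in HPB-ALL, and HPB-ALL DMSO replicate 1 again lay with the SAHM1 arrays. MALAT1 and 18S had the same sign of difference in each line, but the 18S groups overlapped in KOPT-K1 and not in HPB-ALL. In KOPT-K1 the 28S controls differed by 0.27, the hybridization spikes by 0.83 and the ACTB 5′ minus 3′ value, a sign of RNA integrity, by -0.17. In HPB-ALL these differences were 0.31, -0.39 and -0.24. The 5′ minus 3′ value of GAPDH differed by only 0.01 in KOPT-K1 and -0.01 in HPB-ALL. The part of these controls in the MALAT1 differences was not tested beyond the fits with 18S or the spikes as a covariate. With the spike covariate the MALAT1 mean difference was -0.37 in KOPT-K1, not called at the gene level. In HPB-ALL it was then 1.06, called with an adjusted p of 0.0437 in limma.

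**Figure D3:**
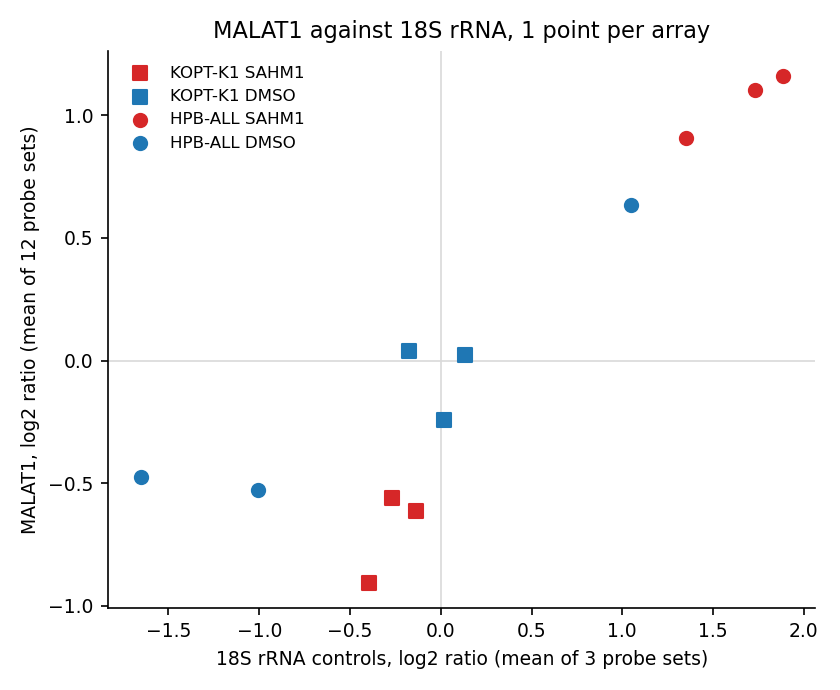
MALAT1 (vertical axis, mean of 12 probe sets) against the 18S ribosomal RNA controls (horizontal axis, mean of 3 probe sets), both as log2 ratio to the line's DMSO mean, 1 point per array. The HPB-ALL points run from 18S at -1.65 and MALAT1 at -0.48 to 18S at 1.89 and MALAT1 at 1.16, with DMSO replicate 1 (18S at 1.05, MALAT1 at 0.63) nearest the SAHM1 arrays.

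Whether MALAT1 follows 18S between arrays of the same group does not use the SAHM1 contrast. It was fitted across all probe sets with the 4 groups and the 18S level of each array as terms, and tested with limma. The slope, in log2 units per log2 unit of 18S, was positive in 12 of 12 MALAT1 probe sets and ran from 0.18 for 224559_at to 0.65 for 224568_x_at. It was called in 6 of the 13 member probe sets, with 24 called, or 0.0439%, among the 54672 probe sets that are not 18S controls, these 6 included, and 0% called with a negative slope. The 6 were 223577_x_at (0.56 ± 0.06, adjusted p = 0.0064), 223940_x_at (0.62 ± 0.08, adjusted p = 0.0177), 231735_s_at (0.47 ± 0.06, adjusted p = 0.0229), 1558678_s_at (0.44 ± 0.06, adjusted p = 0.0343), 224568_x_at (0.65 ± 0.09, adjusted p = 0.0343) and 223578_x_at (0.56 ± 0.08, adjusted p = 0.039), all by limma. They share a target and are not 6 separate observations. The other called probe sets included those of the linker histones H1-2, H1-3, H1-4 and H1-5. They also included 1 probe set each of RBM25, EWSR1 and SFPQ, RNA-binding proteins of speckles or paraspeckles, whose other probe sets were not called. The rest were 1 probe set each of KMT2C, RAPGEF5, UBN2, GK5, LPGAT1, BDP1, ZFP91 and BCOR, and probe sets without a gene symbol. All these genes were named after their values were seen.

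The slopes rested on 1 array. HPB-ALL DMSO replicate 1 was the highest of its group in 12 of 12 MALAT1 probe sets, by a median of 1.16 over the mean of the other 2 arrays, while it was the highest in 30.6% of all probe sets. Without it, 0 member probe sets and 0 of all probe sets had a called slope (limma, 3 member probe sets at an unadjusted p under 0.05, against 9 with it), and the slope of the MALAT1 mean was 0.19. With all arrays that slope was 0.45 ± 0.07, with an adjusted p of 0.111 over 19775 genes in limma. The count of 6 was also 2 or 3 without KOPT-K1 SAHM1 replicate 2, KOPT-K1 DMSO replicate 2 or 3, HPB-ALL SAHM1 replicate 1, 2 or 3, or HPB-ALL DMSO replicate 2. The 18S level ranged over 2.70 among the HPB-ALL DMSO arrays, 0.54 among the HPB-ALL SAHM1 arrays, 0.31 among the KOPT-K1 DMSO arrays and 0.26 among the KOPT-K1 SAHM1 arrays. Fitted within each line alone, 0 member slopes were called by limma, and the MALAT1 mean had a slope of 0.34 ± 0.52 in KOPT-K1 and 0.45 ± 0.06 in HPB-ALL.

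In the fit that also held the 18S level, the MALAT1 mean difference was -0.52 ± 0.11 in KOPT-K1 and 0.20 ± 0.19 in HPB-ALL. At the gene level it was then called in KOPT-K1 and not in HPB-ALL (limma). In KOPT-K1 4 member probe sets were then called lower, with 9.25% of all probe sets called lower, and 0 higher, with 4.11% of all (7 lower and 0 higher at an unadjusted p under 0.05 in limma), and the MALAT1 median was -0.43. In HPB-ALL 0 member probe sets were called (limma, 1 at an unadjusted p under 0.05), and the called shares over all probe sets were 0.0201% higher and 0.0146% lower. That fit sets the HPB-ALL SAHM1 arrays against DMSO arrays of widely different 18S level. Its HPB-ALL SE was larger for the GAS5 probe set, 0.19 against 0.11, and smaller for the MALAT1 mean, 0.185 against 0.237. Among MALAT1 probe sets it was larger in some, such as 224559_at (0.71 against 0.42). In others it was smaller, such as 223577_x_at (0.16 against 0.28).

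GAS5, the only host transcript with a probe set of its own, was not called in either line with all arrays. Its probe set, 1560402_at, read -0.11, -0.08 and -0.01 in KOPT-K1 with SAHM1, against 0.07, -0.05 and -0.02 with DMSO, and the groups overlapped. In HPB-ALL it read -0.03, 0.22 and 0.49 with SAHM1, against 0.06, -0.00 and -0.06 with DMSO, where the SAHM1 arrays spread over far more than the DMSO arrays and overlapped them. The differences were -0.07 ± 0.11 in KOPT-K1 and 0.23 ± 0.11 in HPB-ALL. At the gene level the HPB-ALL difference was 0.35 and called without HPB-ALL SAHM1 replicate 1 (limma). Without HPB-ALL SAHM1 replicate 3 it was 0.10 and not called. As GAS5 was chosen by this contrast, these calls describe it and test nothing. The 18S slope of GAS5 was 0.01 ± 0.07.

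The 20 probe sets that list a member with other genes showed the host loci in more detail, although no single gene can be named from them. In all 20 the other genes listed lie inside the span of the member gene in RefSeq, and they are snoRNAs or, for NEAT1, the microRNA gene MIR612. One of the 9 that list NEAT1, 220983_s_at, carries a sequence identifier that RefSeq gives to SPRY4, a gene on another chromosome, so its values (-0.06 in HPB-ALL and 0.16 in KOPT-K1) may not concern NEAT1. In KOPT-K1, 8 of the 20 were called lower and 1 higher, beside 9.79% and 4.77% of all probe sets. In HPB-ALL 5 were called higher and 2 lower, beside 3.09% and 2.06%. Their 18S slopes ran from -0.14 to 0.15 and 0 of 20 were called (limma, 2 at an unadjusted p under 0.05), all below the lowest MALAT1 slope.

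Among the 9 probe sets listing NEAT1 and MIR612, 227062_at read 0.74, 1.06 and 0.94 in HPB-ALL with SAHM1 against 0.22, -0.17 and -0.08 with DMSO, a difference of 0.92 ± 0.13 with no overlap. In KOPT-K1 the same probe set was at -0.00 ± 0.13. The HPB-ALL rise was also called in 224565_at (0.51 ± 0.09) and 224566_at (0.44 ± 0.08, lost without HPB-ALL SAHM1 replicate 2 or 3 or HPB-ALL DMSO replicate 2), whose KOPT-K1 differences were -0.12 ± 0.09 and -0.11 ± 0.08. By contrast 214657_s_at read -0.97, -1.22 and -1.11 in KOPT-K1 with SAHM1 against -0.05, 0.13 and -0.08 with DMSO (-1.10 ± 0.10, called), and 0.18 ± 0.10 in HPB-ALL. In KOPT-K1 225239_at was called higher (0.32 ± 0.10), so probe sets with the same annotation were called in both directions. The last call, with an adjusted p of 0.0473 in limma, was lost without KOPT-K1 SAHM1 replicate 2 or 3 or any KOPT-K1 DMSO array, and without HPB-ALL SAHM1 or DMSO replicate 2 or 3.

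The 4 probe sets listing GAS5 and 8 snoRNAs of its introns fell into pairs. In 227517_s_at the KOPT-K1 arrays were at -0.72, -0.69 and -0.83 with SAHM1 and 0.10, -0.03 and -0.08 with DMSO, and the HPB-ALL arrays at -0.48, -0.41 and -0.42 with SAHM1 and 0.04, -0.11 and 0.07 with DMSO. It was called lower in both lines, at -0.75 ± 0.08 and -0.43 ± 0.08, the HPB-ALL call being lost without HPB-ALL DMSO replicate 3. Probe set 228238_at was lower too, called in KOPT-K1 (-0.39 ± 0.09) and at -0.13 ± 0.09 in HPB-ALL. The other pair, 224741_x_at and 224841_x_at, differed by 0.05 to 0.20 in the lines and neither was called.

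The single probe set listing SNHG1 with 8 snoRNAs, 224610_at, was the most even over replicates. It read -0.62, -0.62 and -0.66 in KOPT-K1 with SAHM1 against 0.01, 0.02 and -0.03 with DMSO, and 0.31, 0.31 and 0.32 in HPB-ALL with SAHM1 against 0.02, -0.01 and -0.00 with DMSO. The differences were -0.63 ± 0.07 and 0.31 ± 0.07, opposite in sign and called in both lines. The same opposite directions were called in 225220_at, which lists SNHG8 and 1 other gene, at -0.53 ± 0.08 in KOPT-K1 and 0.31 ± 0.08 in HPB-ALL. The HPB-ALL call of 224610_at was lost without any 1 HPB-ALL array other than DMSO replicate 1, and that of 225220_at without any 1 HPB-ALL array or any 1 KOPT-K1 DMSO array. Both HPB-ALL calls were also lost with the 18S covariate, at differences of 0.30 ± 0.11 for 224610_at and 0.41 ± 0.13 for 225220_at, with 18S slopes of 0.01 ± 0.04 and -0.05 ± 0.05.

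All 3 probe sets listing SNHG12 were called lower in KOPT-K1, at -0.52 ± 0.10, -0.52 ± 0.12 and -0.37 ± 0.08. In HPB-ALL 228990_at was lower as well (-0.47 ± 0.08, called), while 223773_s_at and 223774_at were at -0.01 ± 0.10 and 0.01 ± 0.12. The probe set listing SNHG5 was at 0.00 ± 0.07 and 0.01 ± 0.07 in KOPT-K1 and HPB-ALL, and that listing SNHG15 at -0.14 ± 0.08 and -0.06 ± 0.08, none of them called. The HPB-ALL count of 5 higher was 2 or 3 without any 1 HPB-ALL array other than DMSO replicate 1, the count of 2 lower was 1 without HPB-ALL DMSO replicate 3, and with 1 array left out the KOPT-K1 count of 8 lower did not move. After quantile normalization 1 was called in each line, in both cases lower. With the 18S covariate 8 were called lower and 1 higher in KOPT-K1, and 0 in HPB-ALL (limma, 5 higher and 2 lower at an unadjusted p under 0.05). With the spike covariate 3 were called lower and 0 higher in KOPT-K1, beside 599 and 307 of all probe sets. In HPB-ALL 2 were then called higher and 2 lower, beside 493 and 469 of all.

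**Figure D4:**
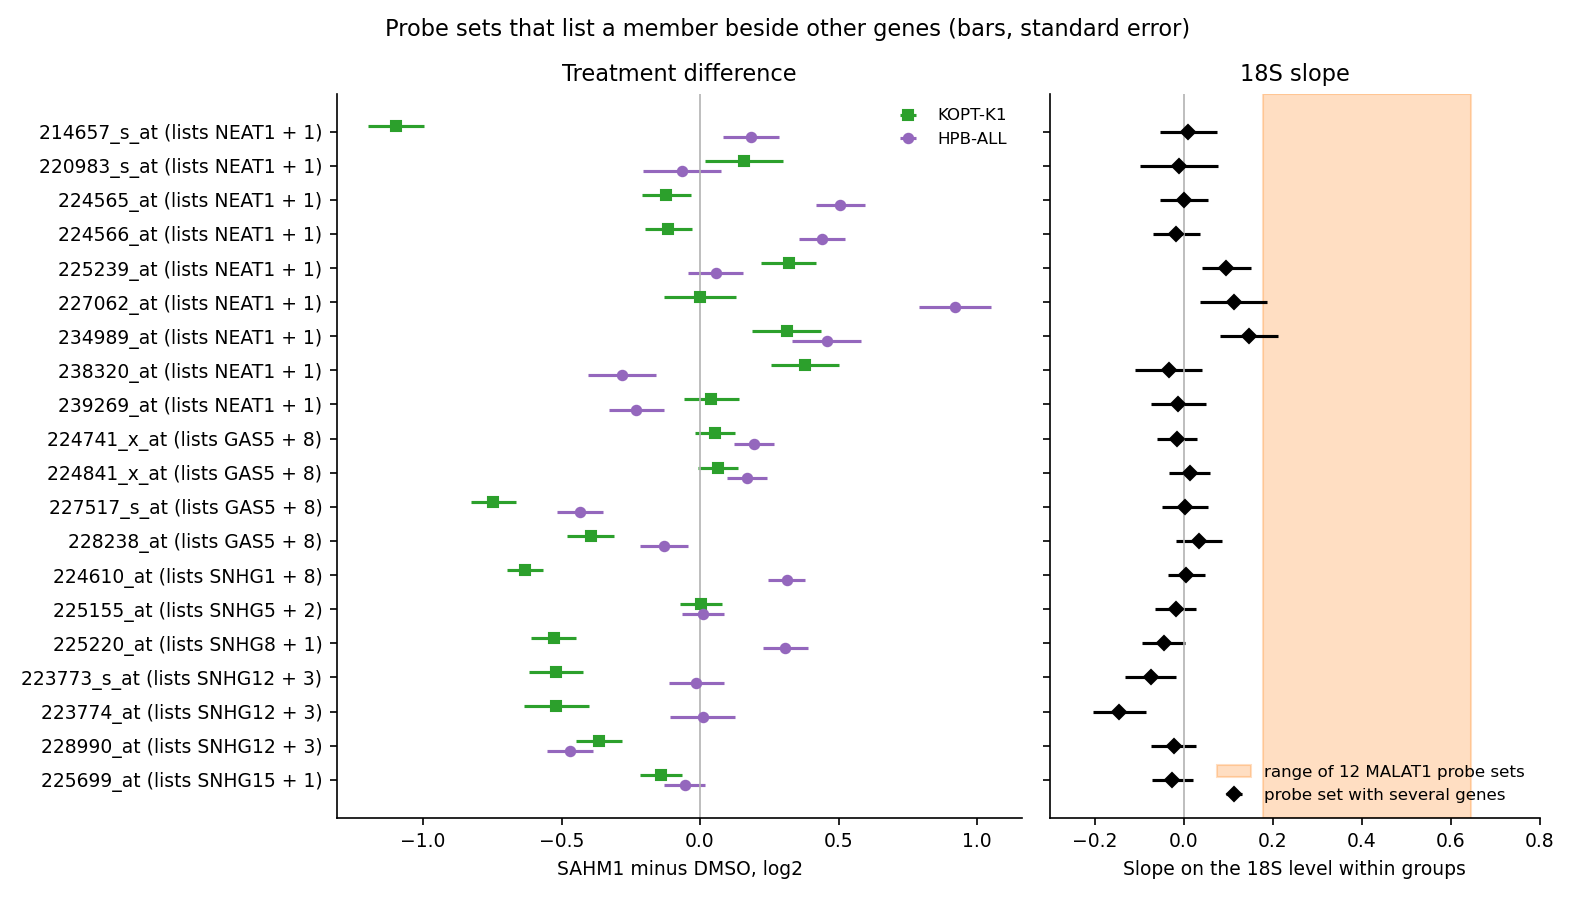
Left, SAHM1 minus DMSO difference on the log2 scale (horizontal axis, SE bars) of the 20 probe sets that list a member with the number of other genes shown, in KOPT-K1 (squares) and HPB-ALL (circles). Right, their slope on the 18S level within groups (SE bars), with the range of the 12 MALAT1 probe sets, 0.18 to 0.65, shaded; all 20 slopes lie below that range.

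Other genes of the same pathways were read at the gene level, as the mean of a gene's single-symbol probe sets, with calls at an adjusted p under 0.05 over 19775 genes. Over all genes 5.85% were called higher and 13.2% lower in KOPT-K1, and 4.96% higher and 4.38% lower in HPB-ALL, with median differences of 0.00 and -0.02. Where a list had a count of 0 in a direction, 0 to 3 of its genes had an unadjusted p under 0.05 in that direction. After quantile normalization 2 of the 95 measured genes of the 7 lists were called in KOPT-K1, against 39, and 6 in HPB-ALL, against 20, while the sign of each list's median was kept. Of 19 other non-coding snoRNA hosts, 9 were measured. In KOPT-K1 2 fell, SNHG17 (-0.55 ± 0.07, both probe sets called) and EPB41L4A-AS1 (-0.27 ± 0.08, neither probe set called singly, call lost in 8 of 12 fits without 1 array). In HPB-ALL SNHG32 rose (0.38 ± 0.05) and DANCR fell (-0.47 ± 0.06), each from 1 probe set. The list medians were -0.08 and 0.05.

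Of 20 protein-coding snoRNA hosts, 10 were measured, and 4 fell and 0 rose in KOPT-K1. These were WDR43 (-0.68 ± 0.09), a factor of small-subunit ribosome assembly, TAF1D (-0.54 ± 0.09), a subunit of the RNA polymerase I selectivity factor, SF3B3 (-0.34 ± 0.08, 1 of 2 probe sets called), a splicing factor, and IPO7 (-0.19 ± 0.05, 1 of 4 probe sets called, call lost in 3 of 12 fits without 1 array), a nuclear import receptor. In HPB-ALL 2 fell, CHD8 (-0.33 ± 0.09), a chromatin remodeller, and IPO7 (-0.20 ± 0.05). Neither had a probe set called singly there, and both calls were lost in 6 of 12 fits without 1 array. The list median in KOPT-K1 was -0.11, and that in HPB-ALL was -0.10.

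Of 19 other long or structural non-coding RNAs, 13 were measured. TUG1 fell in KOPT-K1 (-0.46 ± 0.05), with 4 of 6 probe sets called and 1 at 0.11, and NORAD, a cytoplasmic RNA that binds PUMILIO proteins, fell there (-0.38 ± 0.08) with probe sets at -0.67 and -0.09. In HPB-ALL TUG1 was at 0.03 ± 0.05 and NORAD at 0.12 ± 0.08. DLEU2, which hosts microRNAs of the miR-15/16 family, rose in HPB-ALL (0.39 ± 0.06) with probe sets between 0.02 and 0.65, and was at 0.11 ± 0.06 in KOPT-K1. The list medians were 0.01 and 0.03.

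Transcripts of many proteins of the nuclear bodies of MALAT1 and NEAT1 were lower in KOPT-K1, where RNA and not protein was measured. Of the genes of 18 paraspeckle proteins, 16 were measured, and 10 fell and 0 rose in KOPT-K1 with a median of -0.30. TAF15, an RNA-binding protein of the FET family, fell there by 0.68 ± 0.13 (3 of 4 probe sets called), RBM14 by 0.57 ± 0.09 (2 of 3) and the splicing regulator HNRNPA1 by 0.43 ± 0.11 (1 of 3, call lost in 2 of 12 fits without 1 array). The count of 10 was 0 after quantile normalization (limma, 9 at an unadjusted p under 0.05). In HPB-ALL 1 rose and 1 fell with a median of 0.01: TAF15 was higher (0.46 ± 0.13, 1 of 4 probe sets called) and NONO, which binds NEAT1, lower (-0.23 ± 0.06, 1 of 3 called), calls lost in 9 and 4 of 12 fits without 1 array.

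Of the genes of 22 nuclear speckle proteins and MALAT1 partners, 20 were measured, and 8 fell and 0 rose in KOPT-K1 with a median of -0.24. RBM25, a splicing factor, fell by 0.63 ± 0.09 (6 of 7 probe sets called), SRSF6, an SR protein, by 0.55 ± 0.07 (1 of 2) and TRA2A, a splicing activator, by 0.38 ± 0.10 (1 of 5, call lost in 3 of 12 fits without 1 array). The count of 8 was 4 or 5 without KOPT-K1 SAHM1 replicate 1 or 2 or KOPT-K1 DMSO replicate 1 or 3. After quantile normalization it was 0 (limma, 4 at an unadjusted p under 0.05). In HPB-ALL 4 rose and 0 fell with a median of 0.10, among them TRA2A (0.40 ± 0.10), CLK4, a kinase of SR proteins (0.39 ± 0.10, with probe sets between 0.00 and 1.17 and none called singly), and SRSF11 (0.30 ± 0.07). The count of 4 was 0 or 1 without any 1 HPB-ALL array other than DMSO replicate 1, and 7 without that array. CLK4 was also among the 8 that fell in KOPT-K1 (-0.31 ± 0.10, call lost in 9 of 12 fits without 1 array). The 18S slopes were 0.13 for TRA2A, 0.16 for CLK4 and 0.17 for TAF15, none called at the gene level, and with the 18S covariate their HPB-ALL differences were 0.11, 0.05 and 0.08.

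Of the genes of 18 proteins of snoRNA particles and their assembly, 16 were measured. In KOPT-K1 7 fell and 1 rose, with a median of -0.15. NAF1, an assembly factor of H/ACA particles, fell by 0.71 ± 0.11, and NUFIP1 and ZNHIT6, assembly factors of C/D particles, by 0.50 ± 0.06 and 0.42 ± 0.09. In HPB-ALL 6 fell and 0 rose, with a median of -0.11. NOLC1, a nucleolar and Cajal body chaperone of snoRNA particles, fell by 0.48 ± 0.06 in HPB-ALL and 0.26 ± 0.06 in KOPT-K1, SHQ1, a chaperone of the pseudouridine synthase dyskerin, by 0.46 ± 0.06 and 0.19 ± 0.06, and RUVBL1, an ATPase used in particle assembly, by 0.41 ± 0.07 and 0.24 ± 0.07. The HPB-ALL calls of these 3 genes and the KOPT-K1 call of NOLC1 were kept in all 12 fits without 1 array, whereas the KOPT-K1 call of SHQ1 was lost in 9 of 12 and that of RUVBL1 in 5 of 12, and the KOPT-K1 count of 7 was 4 without KOPT-K1 DMSO replicate 1 or 2.

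Of 17 nonsense-mediated decay factors, 11 were measured, and 5 fell and 0 rose in KOPT-K1 with a median of -0.18. UPF2 fell by 0.64 ± 0.09, UPF1, the helicase at the centre of the pathway, by 0.48 ± 0.06 (1 of 2 probe sets called) and SMG5 by 0.30 ± 0.09 (1 of 2 called, call lost in 7 of 12 fits without 1 array). In HPB-ALL the 5′ to 3′ exonuclease XRN1 (0.37 ± 0.07) and the decapping enzyme DCP2 (0.27 ± 0.06) rose. DCP2 was also among the 5 that fell in KOPT-K1 (-0.25 ± 0.06, no probe set called singly). Both its calls were kept in all 12 fits without 1 array. EIF4A3, a component of the exon junction complex, fell in HPB-ALL (-0.21 ± 0.06, call lost in 6 of 12, its 1 probe set not called singly). XRN1 had probe sets called in both directions in KOPT-K1, at -0.54, -0.33 and 0.32. With the 18S covariate, 38 of the 95 genes of these 7 lists were called in KOPT-K1, against 39 without it, and 0 in HPB-ALL, against 20 (limma, 11 at an unadjusted p under 0.05).

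The genes whose gene-level pattern over the 12 arrays was most like that of MALAT1 were REL (Pearson r = 0.986), a subunit of NF-kB, CD3G (0.982), a chain of the T cell receptor complex, MED13L (0.982), a Mediator subunit, FNIP1 (0.982) and KHDC4 (0.982). Each was lower with SAHM1 in KOPT-K1, by 0.19 to 0.50, and higher in HPB-ALL, by 0.36 to 0.71, and their 18S slopes were 0.11 to 0.33. Those most like GAS5 were GNB5 (0.931), LPAR4 (0.917), CDADC1 (0.887), ZNF302 (0.877) and CHIC1 (0.874). These correlations describe 12 arrays that share the 4 groups.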

How the data were processed

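Affymetrix arrays were hybridised with biotin-labelled cRNA from 12 samples. The deposited values were made with RMA, per the submitters' processing notes, its version and annotation not given in the sources used here. Each deposited value is a ratio to the mean of the 3 DMSO arrays of its line, as the file shows in 54675 of 54675 probe sets in each line (tolerance 1e-06), so levels are lost and neither a filter on low values nor another background correction could be tried. Their log2 was taken with no pseudocount. Precision is limited by the number of arrays. No 2 arrays held identical values. Labels do not say how far apart the cultures were grown, so p-values measure only the spread between these samples.

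The members, gene lists and tests were chosen with earlier results of these data known. Symbols came from the supplied platform annotation (41097 probe sets with 1 symbol, 1801 with several), and the mean of single-symbol probe sets gave 19775 genes. limma 3.58.1 in R 4.3.3 (lmFit, eBayes, two-sided) was fitted to all 12 arrays with 4 group terms, 8 residual and 12.9 moderated degrees of freedom, with Benjamini-Hochberg adjustment over all probe sets or all genes and calls at an adjusted p under 0.05. The 18S slope added the mean log2 value of 3 control probe sets. Named genes were the members, up to 3 called genes per list and line with the largest difference, and the 5 genes most like a measured member. The plan had named NEAT1 and the mean of 6 hosts for the last; NEAT1 had no value and the host mean was GAS5 alone. The steps were tested on simulated data. Alternatives were quantile normalization, median centring, the replicate number as a block, robust eBayes, 18S or spike covariates, each line alone, no _x_at or _s_at probe sets, and leaving out each array. Probe positions along the transcripts were not analysed here.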

Additional observations from a re-analysis of the deposited data

Results flagged for a closer look

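In these items every SAHM1 array moved one way in HPB-ALL and the other way in KOPT-K1 against the DMSO arrays; the values are the HPB-ALL difference minus the KOPT-K1 difference on the log2 scale, and the difference between the lines was not tested. The MALAT1 mean had 1.814. Its probe sets had 1.409 for 1558678_s_at, 1.755 for 223577_x_at, 1.674 for 224558_s_at, 2.49 for 224559_at, 2.381 for 227510_x_at, 3.952 for 228582_x_at and 1.259 for 231735_s_at. Probe set 224610_at, listing SNHG1 with other genes, had 0.9438, and 225220_at, listing SNHG8 with another gene, had 0.8366.

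Among other host transcripts SNHG17 had 0.6919, EPB41L4A-AS1 had 0.4524 and SNHG32 had 0.4612. Among the genes of speckle and paraspeckle proteins TAF15 had 1.134, TRA2A had 0.789, CLK4 had 0.7082 and SRSF11 had 0.4602. The decay factor DCP2 had 0.521, EIF4A3 had -0.3447, the only one lower in HPB-ALL and higher in KOPT-K1, and the T cell marker CD3G had 1.207.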

How the results depend on the processing

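Over the alternatives without an omitted array, the count of member probe sets called lower in KOPT-K1 (3) was 0 after quantile normalization, 0 with the spike covariate and 1 without _x_at and _s_at probe sets. The count called higher in HPB-ALL (10) was 0 after quantile normalization, 0 with the 18S covariate, 2 with the spike covariate, 4 with each line alone and 0 without _x_at and _s_at probe sets, a setting that leaves 224559_at and 1560402_at by construction. Quantile normalization lowered the calls of all probe sets in KOPT-K1 to 154 lower, against 5353, and in HPB-ALL to 80 higher, against 1692. After it the MALAT1 mean differences were -0.33 in KOPT-K1 and 0.91 in HPB-ALL. The lower calls of all probe sets in KOPT-K1 were 599 with the spike covariate and 2956 of 39173 without _x_at and _s_at probe sets. The higher calls in HPB-ALL were 11 with the 18S covariate, 493 with the spike covariate and 1003 with each line alone. Without _x_at and _s_at probe sets they were 1022 of 39173. The MALAT1 mean in HPB-ALL (1.18) was 0.20 with the 18S covariate and 0.76 without _x_at and _s_at probe sets, where it was -1.73 in KOPT-K1. Its HPB-ALL call was lost in these fits and after quantile normalization. In KOPT-K1, where it was not called in the main fit, it was called in 3 kinds of fit (limma). These were the 18S covariate, each line alone, and the fit without _x_at and _s_at probe sets, which leaves 224559_at as its only probe set. With the 18S covariate the HPB-ALL difference changed sign for 223940_x_at (-0.055), 231735_s_at (-0.10), CD3G (-0.018) and the uncalled 223578_x_at (-0.46); the cause was not tested. The count of called 18S slopes (6) was 0 with the replicate block, 0 in KOPT-K1 alone, 0 in HPB-ALL alone and 0 without _x_at and _s_at probe sets; after quantile normalization it was 8, with 719 over all probe sets against 24.

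Whether arrays of the same replicate number were paired could not be settled from the values. The correlation of their deviations was -0.012 to 0.060, and 4 of 6 SAHM1 arrays correlated best with their own number. With the block 4 member probe sets were called lower in KOPT-K1 and 10 higher in HPB-ALL, beside 4536 and 1153 of all probe sets.

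Leaving out 1 array, the count called lower in KOPT-K1 was 1 to 7, the count called higher in HPB-ALL 1 to 11 and the count of called slopes 0 to 7, with 0 to 58 over all probe sets. Over all probe sets, the lower calls in KOPT-K1 were then 3394 to 5528 and the higher calls in HPB-ALL 482 to 2357. The MALAT1 mean difference was -0.72 to -0.53 in KOPT-K1 and 0.98 to 1.56 in HPB-ALL, and that of GAS5 -0.10 to -0.03 and 0.10 to 0.35. Where 2 arrays remain in a group, the shared spread is used. Of the list genes named, 18 of 26 calls in KOPT-K1 and 8 of 19 in HPB-ALL were kept without any 1 array.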
